A study of Oryza sativa with 51 samples.

Results

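The light-harvesting antenna of photosystem II in rice (Oryza sativa) is described here through 8 genes, read in RNA libraries of seedlings under 3 soil water levels and in tables of a histone mark. The genes were listed by locus, with no threshold on a measured value, although earlier results of these data were known when the list was made. They are CAB2R (LOC_Os01g41710), CAB1R (LOC_Os09g17740), the further Lhcb1/Lhcb2-type loci LOC_Os01g52240 and LOC_Os03g39610, Lhcb3 (LOC_Os07g37550), CP29 (LOC_Os07g37240), CP26 (LOC_Os11g13890) and CP24 (LOC_Os04g38410). They make up 8 of the 55986 genes given for each library, and 7 of the 8 passed the filter on low values and were tested.

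All RNA libraries came from the line Zhonghua11 at the 4-leaf stage, with 3 libraries from plants under normal water, 3 under moderate drought and 3 under severe drought. Drought developed slowly in soil from a rice field, down to a relative soil water content of about 20% (moderate) or 10% (severe). The mark, monoubiquitinated histone H2B (H2Bub1), was compared by the authors between the same water levels in Zhonghua11, and between an osbzip46 mutant and its wild type under drought, with 3 samples in each group. The plants for the mark were also at the 4-leaf stage. Labels of the mutant and its wild type name leaves and give no soil water content, so their drought cannot be matched to either level. OsbZIP46 is a bZIP regulator in abscisic acid signalling, and the kind of mutant allele is not given in the labels. The labels name neither the organ used for RNA nor the source of each replicate. The p-values below therefore weigh differences between groups only against the spread of these libraries, and that spread can be technical.

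Antenna proteins bind chlorophyll a and b and pass the absorbed light energy to the photosystem core. The products of Lhcb1, Lhcb2 and Lhcb3 genes form the trimers of the major antenna, LHCII. CP29, CP26 and CP24 are monomeric minor antennae that sit between the trimers and the core, and CP29 with CP24 anchors trimers to it. All are coded in the nucleus, and transcripts of this family are among the most abundant in green leaves.

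Values are TPM, transcript levels corrected for transcript length and scaled so that each library sums to 1000000. The libraries had 19185 to 20012 genes at 1 TPM or more, and 8.30 to 10.7 Gb of aligned bases implied by coverage and FPKM. Severe replicate 3 stood apart, since its correlation with any other library reached at most 0.955, whereas severe replicates 1 and 2 correlated at 0.993. Severe-drought changes of the antenna genes, and counts of pathway genes that changed without it, are given with and without it. The mesophyll markers, 3 Rubisco small subunit loci and Rubisco activase, summed to 15227 to 19073 TPM under normal water, 5629 to 7443 under moderate drought and 3202 to 8236 under severe drought, and all 4 were present in every library. They did not move alike. The small subunit means were at 24.2% to 38.6% of normal under moderate drought and at 18.5% to 36.2% under severe drought. The mean of Rubisco activase was at 103% and 92.7% of normal. The 3 root markers summed to 19.1 to 20.6, 14.0 to 15.6 and 15.7 to 23.3 TPM, most of it from Lsi1 (means of 17.9, 12.3 and 16.5 TPM). The low remainder moved in opposite directions. IRT1 had means of 1.65, 0.272 and 0.155 TPM, and HKT2;1 had means of 0.114, 2.23 and 2.16 TPM. Of the meristem markers, OSH1 was listed at 0 in every library and OSH15 reached 0.0312 TPM in severe replicate 3 alone. The part of these markers in the antenna results was not tested, and in bulk samples fewer cells of a type cannot be told apart from less RNA per cell.

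CAB1R lies on chromosome 9 (plus strand, 10845678 to 10847156, in the files' coordinates, for which the sources used here name no genome build). It codes for a major LHCII protein and was the most abundant antenna transcript in every library. It was at 9706, 9167 and 8803 TPM in normal replicates 1 to 3, at 8941, 10422 and 9459 TPM under moderate drought, and at 7269.8, 7705 and 3997 TPM under severe drought. The normal and moderate libraries overlapped, and the 3 severe libraries lay below all others. By level CAB1R ranked 5 among all genes in each normal library, 3 to 5 under moderate drought and 6 to 14 under severe drought.

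CAB2R codes for a protein of the same type and lies on chromosome 1 (plus strand, 23607348 to 23608583). It was at 5781, 5250.3 and 4006 TPM under normal water, at 1376, 1219.5 and 1600.0 TPM under moderate drought, and at 1223, 1202 and 669 TPM under severe drought. Every drought library was far below every normal library, while the moderate and severe libraries overlapped. Its rank among all genes went from 12 to 16 under normal water to 47 to 63 under moderate and 64 to 139 under severe drought.

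LOC_Os03g39610, on chromosome 3 (plus strand, 21999942 to 22001714), was at 3829, 3422 and 2877 TPM under normal water. It was at 2387, 2285 and 2417 TPM under moderate drought and at 2084, 2295 and 931 TPM under severe drought. Lhcb3, whose product occurs in LHCII trimers together with the other types, lies on chromosome 7 (plus strand, 22487421 to 22488766). It was at 3224, 2922 and 2427 TPM under normal water, at 2019, 1868 and 2094 TPM under moderate drought, and at 1756, 1926 and 651 TPM under severe drought. In both genes the drought libraries lay below all normal libraries, and severe replicate 3 lay far below the rest.

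The last of the LHCII loci, LOC_Os01g52240 on chromosome 1 (plus strand, 30030998 to 30032054), was listed at 0 in 8 libraries and at 1.94 TPM in severe replicate 1. It did not pass the filter and was not tested. All 1057 bases of its gene model are covered by LOC_Os01g52250 on the opposite strand, which was at 1.88 to 16.9 TPM. Genes of the Lhcb1 type are closely alike in coding sequence, and the sources used here do not say how reads shared between copies were counted. Levels of single Lhcb1/Lhcb2-type loci, this one above all, are uncertain to that extent.

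Of the minor antennae, CP29 (chromosome 7, minus strand, 22316268 to 22317936) was the most abundant. It was at 6078, 5565 and 4465 TPM under normal water, at 2807, 2302 and 2818 TPM under moderate drought, and at 2312, 2644 and 776 TPM under severe drought. CP26 (chromosome 11, plus strand, 7659682 to 7662281) was at 2966, 2774 and 2152 TPM, then 1187, 1011 and 1250.1 TPM, then 1080.5, 1266 and 307 TPM in the same order. CP24 (chromosome 4, minus strand, 22835896 to 22837594) had the lowest level of the tested antenna genes, at 1325, 1182 and 883 TPM, then 629, 512 and 577 TPM, then 516, 598 and 139 TPM. All 3 minor antenna genes had every drought library below every normal library, with severe replicates 1 and 2 at about the level of moderate drought and severe replicate 3 well under it.

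**Figure D1:**
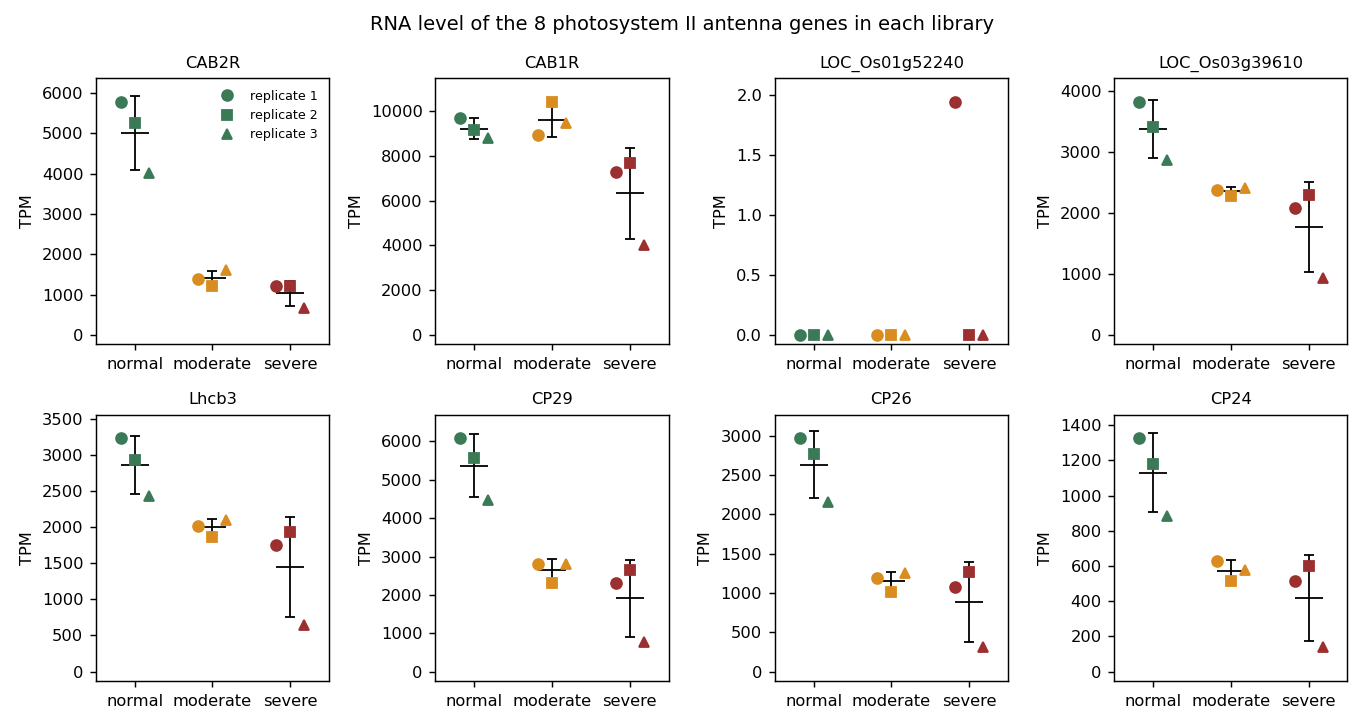
TPM of each antenna gene in each library, by water level (x axis). Points are libraries, with the replicate shown by shape, and black bars are the mean ± SD of 3 libraries, left out for LOC_Os01g52240, which is at 0 in 8 libraries. Under moderate drought the mean of CAB1R is near its normal mean (9607 against 9226 TPM) and that of CAB2R is not (1399 against 5012 TPM), and severe replicate 3 is the lowest severe point in every gene but LOC_Os01g52240.

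Under normal water the order of levels was CAB1R, CP29, CAB2R, LOC_Os03g39610, Lhcb3, CP26 and CP24. The means ± SD (n = 3) were 9226 ± 455 TPM for CAB1R, 5369 ± 824 TPM for CP29 and 5012 ± 912 TPM for CAB2R. CP29 and CAB2R overlapped in range over the libraries, and so did LOC_Os03g39610 (3376 ± 478 TPM) with Lhcb3 (2858 ± 402 TPM) and Lhcb3 with CP26 (2631 ± 426 TPM). Read within each library, however, the order of these neighbours was the same in all 3. CP29 was 1.05 to 1.11 times CAB2R, LOC_Os03g39610 was 1.17 to 1.19 times Lhcb3, and Lhcb3 was 1.05 to 1.13 times CP26. CAB1R above the rest and CP24 (1130.3 ± 226 TPM) below the rest overlapped with no other antenna gene. Under moderate drought CAB2R went from the third place to the fifth, behind LOC_Os03g39610 (2363 ± 69.4 TPM) and Lhcb3 (1993 ± 115 TPM), and it overlapped only with CP26 (1149 ± 124 TPM).

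The first comparison asks what moderate drought did to the antenna. Of the 7 tested genes 1, CAB2R, fell, to 27.9% of its normal mean, whereas the mean of CAB1R was at 104% of normal. The 5 others had means at 43.7% to 70.0% of normal, without passing the threshold. The fold changes below are differences of log2(TPM + 1) from limma, a linear model fitted over all 20642 tested genes, and the threshold is a Benjamini-Hochberg adjusted p of 0.05 over all of them. CAB2R fell by 1.83 ± 0.25 (SE) on the log2 scale (adjusted p = 0.000316 in limma). CAB1R was at 0.06 ± 0.24 (adjusted p = 0.855 in limma), with a 95% interval of −0.49 to 0.60.

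Among the minor antennae, CP26 was at −1.19 ± 0.46 (adjusted p = 0.0537 in limma). CP29 was at −1.02 ± 0.41 (adjusted p = 0.0595) and CP24 at −0.96 ± 0.48 (adjusted p = 0.115), both in limma. Their means were at 43.7%, 49.2% and 50.7% of normal. LOC_Os03g39610 and Lhcb3 were both at −0.51, with SE of 0.31 and 0.36 and limma adjusted p of 0.189 and 0.257. In 6 of the 7 genes, all but CAB1R, the 3 moderate libraries lay below the 3 normal ones.

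Against a background of 18.9% of all tested genes called lower, 1 of 7 antenna genes was called. Libraries that did not overlap, with moderate below normal, were found in 24.7% of all tested genes, against 6 of the 7 antenna genes. The median of the 7 genes was −0.96, beside 0.20 for all tested genes. The error of each gene is shared over 9 libraries, among them severe replicate 3, and the count depended on that. A fit of only the 6 libraries compared called 6 of the 7 lower (background 22.4%), with CP26 at adjusted p = 6.99e-05 and Lhcb3 at 0.00345 in limma, and taking the error without severe replicate 3 also gave 6 (background 23.0%). Scaling moved the members as well, as quantile normalization put LOC_Os03g39610 at −0.05 and Lhcb3 at −0.01, and median-of-ratios scaling called 3 of 7 lower (background 27.5%) and put CAB1R at −0.16.

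The second comparison sets severe drought against normal water. CAB2R, LOC_Os03g39610, Lhcb3, CP29, CP26 and CP24 fell, and CAB1R did not pass the threshold. Thus 6 of 7 antenna genes were called lower, beside 20.6% of all tested genes. In all 7 the severe libraries lay below the normal ones, as they did in 23.3% of all tested genes. The median of the 7 was −1.66, beside 0.22 for all tested genes.

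CAB2R again had the largest change of the 7 and fell by 2.32 ± 0.25 (adjusted p = 8.26e-05 in limma), to 20.6% of its normal mean. The minor antennae came next. CP26 fell by 1.80 ± 0.46 (adjusted p = 0.00879), CP24 fell by 1.67 ± 0.48 (adjusted p = 0.0146) and CP29 fell by 1.66 ± 0.41 (adjusted p = 0.007), all in limma. Their means were at 33.6%, 37.0% and 35.6% of normal.

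The other LHCII genes changed less. Lhcb3 fell by 1.12 ± 0.36 (adjusted p = 0.0242 in limma), to 50.5% of its normal mean. LOC_Os03g39610 fell by 1.03 ± 0.31 (adjusted p = 0.0172 in limma), to 52.4%. CAB1R was at −0.60 ± 0.24 (adjusted p = 0.053 in limma), with a mean of 6324 ± 2027 TPM against 9226 ± 455 TPM under normal water.

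Without severe replicate 3 all 7 genes were called lower (background 22.5%), but with smaller changes, a median of −1.003, and CAB1R at −0.30 (adjusted p = 0.0211 in limma). CP26 was then at −1.16, CP29 at −1.11 and CP24 at −1.003. After quantile normalization 3 of 7 were called (background 30.6%), since LOC_Os03g39610 (−0.48, adjusted p = 0.152), Lhcb3 (−0.64, adjusted p = 0.186) and CP24 (−1.36, adjusted p = 0.0504) no longer passed in limma. Without normal replicate 1 the calls of LOC_Os03g39610 (adjusted p = 0.0599) and Lhcb3 (adjusted p = 0.0749) ended, and that of Lhcb3 also ended without normal replicate 2 (adjusted p = 0.0642, limma).

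**Figure D2:**
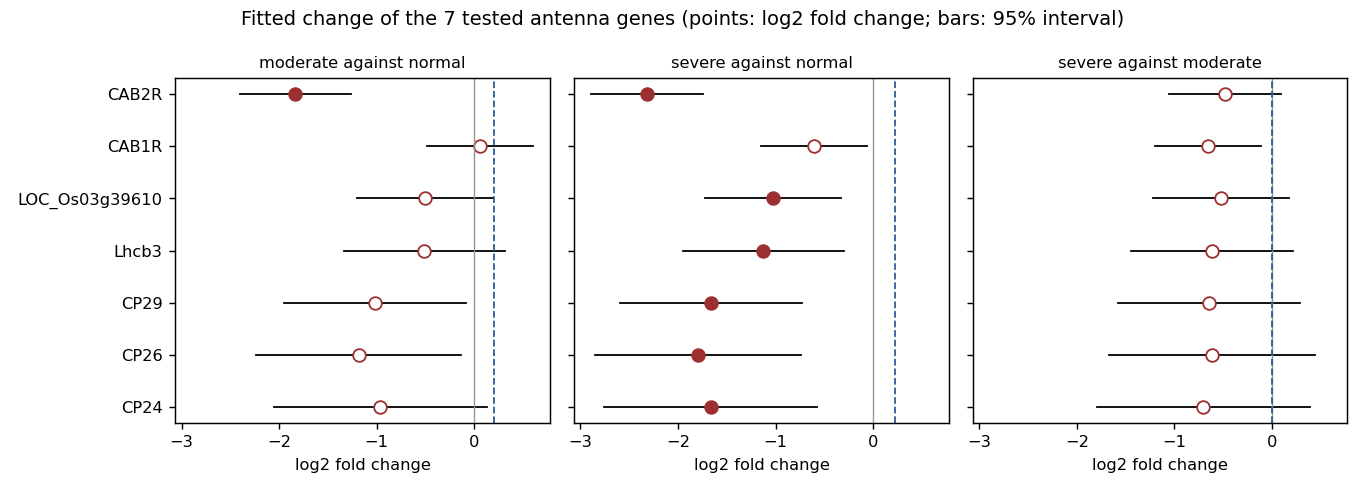
Fitted log2 fold change of the 7 tested antenna genes in the 3 comparisons (x axis), with 95% intervals from limma as bars. Filled points passed the threshold, and the dashed line marks the median of all 20642 tested genes (0.20, 0.22 and −0.00). CAB2R is the one filled point under moderate drought, 6 genes are filled under severe drought, and none in the third panel.

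The third comparison, severe against moderate drought, gave no antenna gene past the threshold in limma. All 7 were lower on average, between −0.48 for CAB2R and −0.70 for CP24, with a median of −0.61 beside −0.00 for all tested genes. CAB1R alone reached an unadjusted p under 0.05, at −0.66 ± 0.24 (adjusted p = 0.355 in limma), and 12.5% of all tested genes did so. CAB1R was also the one antenna gene whose severe libraries all lay below the moderate ones, as those of 10.8% of all tested genes did. Among all genes 3 were called in limma, of which 1 was lower, or 0.00484%.

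Most of this difference came with severe replicate 3. Without it the median of the 7 genes was −0.11, and CP26 was at 0.03. The mean of severe replicates 1 and 2 was at 102% of the moderate mean for CP26, 97.2% for CP24, 93.8% for CP29, 92.7% for LOC_Os03g39610 and 92.4% for Lhcb3. CAB2R and CAB1R were lower in these libraries, at 86.7% and 77.9% of the moderate mean.

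Severe replicate 3 was not lower by 1 common factor. Relative to the mean of severe replicates 1 and 2, it held 55.1% of CAB2R and 53.4% of CAB1R. LOC_Os03g39610 was at 42.5% and Lhcb3 at 35.3%. The minor antennae were lowest, with CP29 at 31.3%, CP26 at 26.2% and CP24 at 25.0%. The order thus ran from CAB2R and CAB1R through the other LHCII genes to the minor antennae.

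In the same library transcripts of chlorophyll breakdown were high. NYC1 and NOL, which code for the subunits of chlorophyll b reductase, a step needed to take LHCII apart, were at 1022 and 123 TPM. In severe replicates 1 and 2 NYC1 was at 296 and 258 TPM and NOL at 49.3 and 47.0 TPM. SGR, which takes the magnesium out of chlorophyll a, was at 480.5 TPM there, against 91.2 and 74.7 TPM. The sum of the mesophyll markers was 3202 TPM in that library, against 6345 and 8236 TPM, and the part of any of these in the antenna values was not tested.

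The make-up of the antenna RNA differed between water levels. Summed over the 8 genes, antenna transcripts were 2.96 ± 0.37% of all TPM under normal water (range 2.56 to 3.29%), 1.97 ± 0.04% under moderate drought (1.93 to 2.02%) and 1.38 ± 0.55% under severe drought (0.747 to 1.76%). The ranges did not overlap. CAB1R made up 29.5 to 34.4% of the antenna sum under normal water, 46.2 to 53.1% under moderate drought and 43.7 to 53.5% under severe drought. CAB2R went the other way, from 15.6 to 17.6% down to 6.22 to 7.92% and 6.82 to 8.95%. CP29 had 17.4 to 18.5% under normal water, 11.7 to 14.5% under moderate and 10.4 to 15.0% under severe drought.

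The shares of LOC_Os03g39610 and Lhcb3 moved less. LOC_Os03g39610 had 11.2 to 11.6%, 11.6 to 12.3% and 12.5 to 13.0% of the antenna sum at the 3 water levels, and Lhcb3 had 9.48 to 9.80%, 9.52 to 10.4% and 8.71 to 10.9%. The ratio of CAB1R to CAB2R, chosen after the values were seen and given as a description, was 1.68, 1.75 and 2.20 in the normal libraries. It was 6.50, 8.55 and 5.91 under moderate drought and 5.94, 6.41 and 5.98 under severe drought. An exact permutation test of its log2 was run on 3 libraries against 3. The p of that test cannot fall under 0.1, so no conclusion is drawn from it. Every drought library had a higher ratio than every normal library, and severe replicate 3 lay within the range of the other drought libraries.

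**Figure D3:**
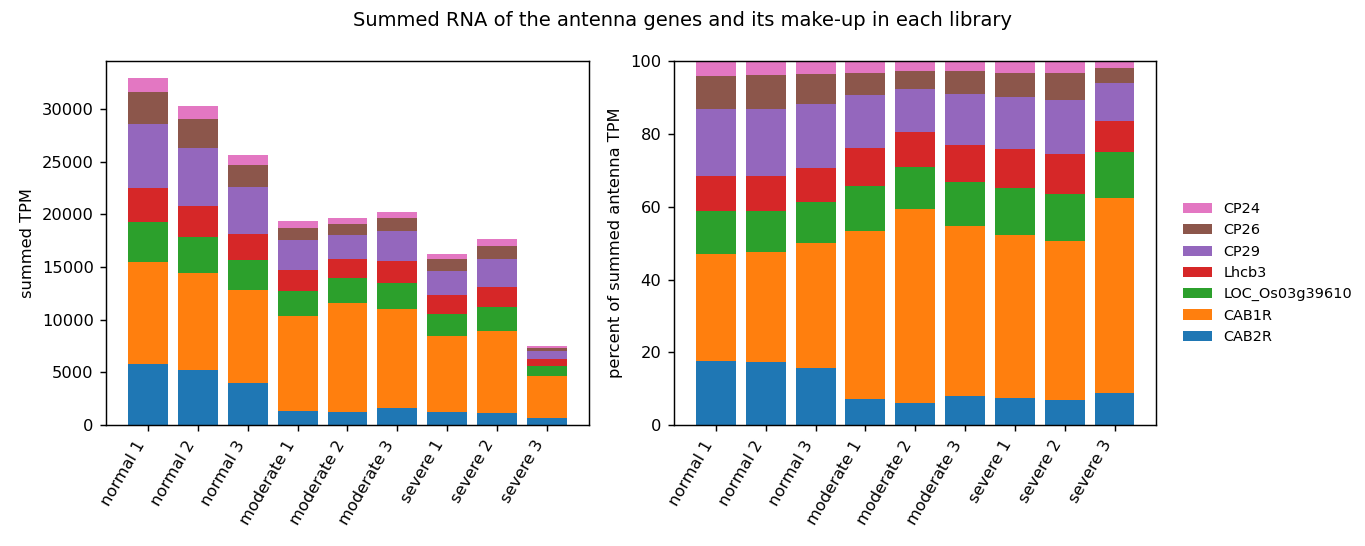
Summed TPM of the tested antenna genes in each library (left, y axis in TPM) and the share of each gene in that sum (right, y axis in percent), with libraries on the x axis. The sum is 25613 to 32911 TPM under normal water and 7470.4 TPM in severe replicate 3, and the share of CAB1R is larger in every drought library (at least 43.7%) than in every normal library (at most 34.4%).

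The antenna genes differed among themselves in their pattern over the 9 libraries. Likeness was measured as the root mean square difference of log2(TPM + 1), each gene centred on its own mean. The mean pattern of the tested antenna genes was at −1.65 in severe replicate 3 and at −0.28 to 0.95 in the other libraries. That library can therefore weigh heavily in the distances, and none is given without it. CP29, CP26 and CP24 were within 0.102 to 0.108 of each other. LOC_Os03g39610 and Lhcb3 were 0.0879 apart. CAB2R and CAB1R were the farthest pair, at 0.868, and each was over 0.5 from the mean of the other tested antenna genes (0.548 and 0.532), where CP29 was at 0.136.

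By the same measure, the 5 genes of the other pathway lists closest to the mean antenna pattern were PsbP (0.152), a subunit of the oxygen-evolving complex, CHLH (0.161), the large subunit of magnesium chelatase, the photosystem I antenna genes Lhca1 (0.234) and Lhca4 (0.268), and DVR (0.253), which reduces divinyl chlorophyllide. Of all genes with a mean of at least 5 TPM, LOC_Os01g10810 (0.113) and LOC_Os11g34110 (0.132) were closest. LOC_Os01g10810, on chromosome 1, was at 14.6 to 17.4 TPM under normal water, 7.21 to 8.95 under moderate and 1.82 to 7.87 under severe drought. The median distance of all such genes was 0.852, and 1% of them lay within 0.284.

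The photosystem I antenna binds to the other photosystem and is the family most like the genes above. The names of its loci, and those of the further pathway genes below, are as listed for this work and are not paired with the loci in the files. Under moderate drought 1 of 6 tested genes fell and none rose in limma (background 18.9% lower and 39.4% higher). That gene was Lhca5, known from Arabidopsis as a minor photosystem I antenna, which fell by 2.01 ± 0.14 (adjusted p = 7.97e-06 in limma). Under severe drought 4 of 6 fell (background 20.6%), with Lhca5 at −2.01 ± 0.14, Lhca1 at −0.96 ± 0.28 and Lhca4 at −0.87 ± 0.28. The list's medians were −0.39 and −0.85. Single libraries moved the severe count, to 1 of 6 without normal replicate 1, to 2 without normal replicate 2 and to 5 without normal replicate 3. Of all 20642 tested genes 3746, 3750 and 3641 were called lower in these 3 fits. Without severe replicate 3 there were 3 lower and 1 higher (background 22.5% and 44.4%), with a median of −0.52, Lhca1 at −0.60 and Lhca4 at −0.51. Lhca2 then lost its call (adjusted p = 0.106) and Lhca6 was called higher (0.36, adjusted p = 0.0373), both in limma. Fits of only the 6 libraries compared called 3 of 6 lower under moderate drought (background 22.4%) and 2 of 6 under severe drought (background 18.8%). The ratio of summed photosystem II antenna to summed photosystem I antenna TPM was 1.69 to 1.88 under normal water, 1.47 to 1.72 under moderate and 1.31 to 1.51 under severe drought, so normal and moderate libraries overlapped.

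Of the other nuclear-coded photosystem II proteins listed for this work, 6 of 8 were tested. Both genes of PsbS, the protein that senses acid in the thylakoid lumen and starts the release of excess antenna energy as heat, moved, and in opposite directions. PsbS1 was at 1049.7, 1066 and 1029 TPM under normal water, at 353, 254 and 399 TPM under moderate drought and at 269.5, 399 and 347 TPM under severe drought. PsbS2 was at 58.2, 51.5 and 82.7 TPM, then 367, 506 and 331 TPM, then 311, 372 and 523 TPM. So PsbS1 was well above PsbS2 under normal water, and their ranges met under both droughts.

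Under moderate drought PsbS2 rose by 2.63 ± 0.25 and PsbS1 fell by 1.67 ± 0.19 (adjusted p = 3.88e-05 and 0.000103 in limma). PsbP fell by 0.82 ± 0.28, a call lost in 7 of 16 other settings, among them without normal replicate 1 or 2 and without moderate replicate 1, 2 or 3. Thus 1 of 6 rose (background 39.4%) and 2 fell (background 18.9%), or 4 in the fit of the 6 libraries compared (background 22.4%). Under severe drought 1 rose (background 42.1%) and 3 fell (background 20.6%), with PsbS2 up by 2.62 ± 0.25, PsbS1 at −1.65 ± 0.19 and PsbP at −1.19 ± 0.28. PsbP was at −0.82 without severe replicate 3 and was still called.

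Chlorophyll synthesis, which supplies the pigment that antenna proteins need to fold, showed no common direction. Of 12 genes 4 rose and 1 fell under moderate drought (background 39.4% higher and 18.9% lower), and 2 rose and 2 fell under severe drought (background 42.1% and 20.6%). PORA, a light-dependent protochlorophyllide reductase, rose by 0.75 ± 0.27 under moderate and by 1.24 ± 0.27 under severe drought. Without severe replicate 3 PORA was at 0.94 under severe drought, still called, and at 0.18 in severe against moderate drought. CAO1, which makes chlorophyll b, rose by 0.73 ± 0.26 and CRD1, a cyclase subunit, by 0.65 ± 0.25 under moderate drought. The moderate-drought count depended on single libraries. Without normal replicate 2, normal replicate 3 or moderate replicate 2 none of the 12 was called higher in limma, and without normal replicate 1, moderate replicate 1 or moderate replicate 3 there was 1. Of all 20642 tested genes 6803 to 7843 were called higher in these fits. None was called higher without the filter on low values (7941 of 39032 over all genes), with quantile normalization (5690 of 20642) or with median-of-ratios scaling (5885 of 20642). The fit of the 6 libraries compared called 6 higher (9369 of 20642 over all genes) and 2 lower (4627 of 20642). PORA and CRD1 each lost the call in 9 of 16 settings and CAO1 in 8.

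CHLH fell by 1.08 ± 0.35 and DVR fell by 0.96 ± 0.23 under severe drought. Without severe replicate 3 they were at −0.59 and −0.65, both still called, and 6 of the 12 genes were then called higher (background 44.4%) and 2 lower (background 22.5%). CHLH was not called without normal replicate 1 or 2, where 1 gene was called in each direction, as in the fit of the 6 libraries compared. Of all 20642 tested genes 7334 to 7839 were called higher and 3746 to 3883 lower in these fits.

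The next list holds regulators, carriers and breakdown enzymes of the antenna. Of its 8 genes 5 rose and none fell under each drought (background 39.4% and 42.1% higher). GLK1, GLK2, cpSRP43 and NOL rose under both. STN7, a kinase that phosphorylates LHCII, passed under moderate drought (0.26 ± 0.09, adjusted p = 0.0377 in limma) and not under severe drought (adjusted p = 0.176 in limma). SGR passed under severe drought and not under moderate drought (adjusted p = 0.0697 in limma). The call of STN7 ended without any 1 of the normal or moderate libraries. NYC1 was called lower under moderate drought in the fit of 6 libraries and after median-of-ratios scaling. Without severe replicate 3 it was also called lower under severe drought (−1.07), where 6 of the 8 were then called higher (background 44.4%). GLK1, a transcription factor that activates antenna and chlorophyll genes, was at 63.9, 58.5 and 49.6 TPM under normal water, at 191, 179 and 196 TPM under moderate drought and at 197, 192 and 98.9 TPM under severe drought. It rose by 1.71 ± 0.24 and by 1.43 ± 0.24. The drought libraries were all higher than the normal ones, with severe replicate 3 the lowest among them.

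NOL rose by 1.78 ± 0.31 under moderate and by 2.42 ± 0.31 under severe drought (adjusted p = 0.00125 and 0.000226 in limma). Without severe replicate 3 the rise of NOL under severe drought was 1.97. The cpSRP43 gene, whose product carries antenna proteins through the stroma to the thylakoid, rose by 1.08 ± 0.17 under moderate drought. SGR rose by 2.93 ± 0.61 under severe drought and by 2.09 without severe replicate 3. NYC1, the partner of NOL, was at 549, 634 and 559 TPM under normal water and at 260.0, 287 and 255 TPM under moderate drought (−1.12 ± 0.44, adjusted p = 0.0553 in limma).

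**Figure D4:**
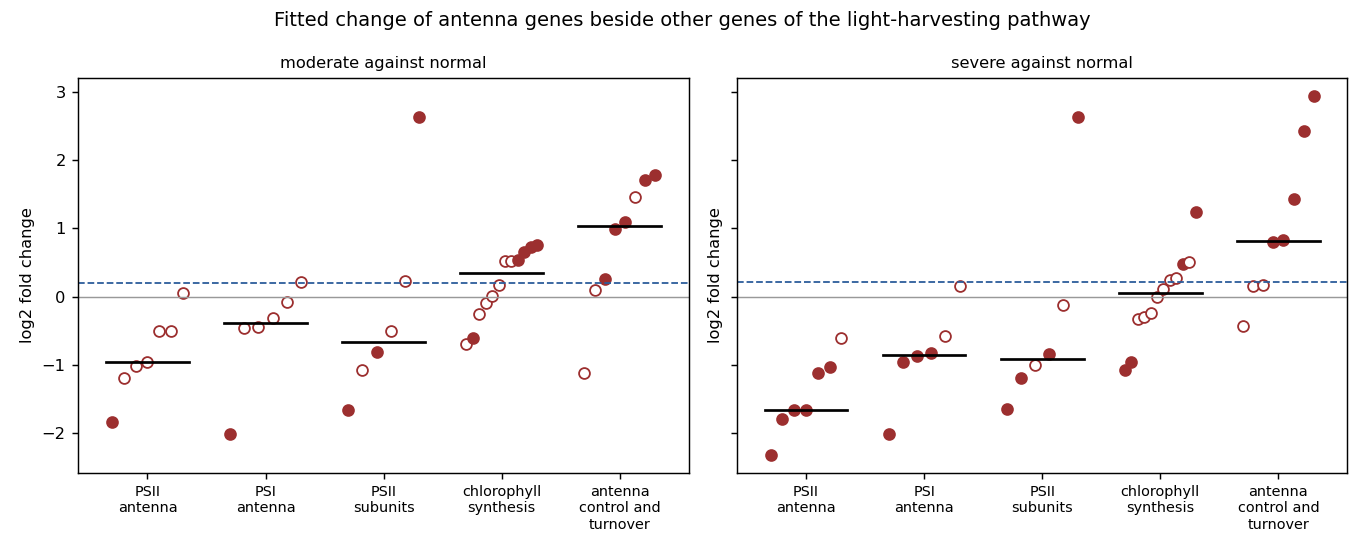
Fitted log2 fold change (y axis) of the tested genes in 5 lists of the light-harvesting pathway (x axis) under moderate and severe drought against normal water. Points are genes, filled where they passed the threshold in limma, black bars are list medians, and the dashed line is the median of all tested genes. The photosystem II antenna has the lowest median of the 5 lists in both panels (−0.96 and −1.66), and the list of antenna control and turnover the highest (1.03 and 0.81).

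H2Bub1 is a mark on the bodies of transcribed genes. The deposited tables list regions with a log2 concentration per condition, and a region that is not listed has no value here. None of the 8 antenna genes was among the 1395 regions of the authors' deposited table for moderate drought or the 886 of the table for severe drought, whose false discovery rates (FDR) are at most 0.0498 and 0.0499. These tables name 2.38% and 1.55% of all genes, so a count of 0 of 8 lies near the background. Antenna genes were also missing from the 1287 rows of the authors' deposited gene table for the osbzip46 mutant, which names 2.26% of all genes. All 1287 rows are losses in the mutant, with a log2 fold change of at most −1.0 and an authors' p of at most 0.0499. A gene with more H2Bub1 in the mutant could therefore not appear there. Of other pathway genes, the authors' deposited table for moderate drought lists SGR (log2 fold change 4.31, FDR 0.00163) and Lhca5 (−1.10, FDR 0.015).

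Lhcb3 had the one region of an antenna gene, in the authors' deposited table of mutant against wild type under drought (chromosome 7, 22487754 to 22488253, 333 bases from the start of the gene). Its log2 concentration was 6.45 in the mutant and 5.30 in the wild type, a log2 fold change of 1.14 with p = 0.00872 and FDR 0.637 in the authors' deposited table. It was therefore not past an FDR of 0.05, which 9 of the 522 regions there (1.72%) were. That table names 0.913% of all genes, and 432 of its 522 regions are higher in the mutant. It also lists 5 other pathway genes, all higher in the mutant and none past that FDR, among them the photosystem I antenna gene Lhca1 (log2 fold change 1.38, FDR 0.837 in the authors' deposited table).

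Near CP29, 4611 bases beyond its 3′ end, the authors' deposited tables list a region assigned to LOC_Os07g37230 (chromosome 7, 22311158 to 22311657). Its log2 concentration was 6.55 under normal water, 3.82 under moderate drought (log2 fold change −2.73, FDR 0.00013) and 5.00 under severe drought (−1.55, FDR 0.00704). The region lies outside the CP29 gene, and its part in the level of CP29 was not tested.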

How the data were processed

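RNA was read in 9 libraries and H2Bub1 in the authors' tables of comparisons. The members and gene lists were chosen with earlier results of these data known. The authors deposited a TPM, an FPKM and a coverage (read depth averaged over bases) for every gene, per the file headers. The deposited H2Bub1 tables hold log2 concentrations and log2 fold changes, with p-values and FDR of the authors, per the file headers. The submitters' processing notes name HISAT2 2.0.5, DESeq2 1.20.0, Bowtie2 2.3.4 and MACS2 2.1.1 without their roles. The sources used here give neither the program behind the RNA tables nor the genome build, and single ChIP libraries were not analysed here.

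The 20642 genes reaching 1 TPM in 3 or more libraries were modelled as log2(TPM + 1), which understates changes of low genes. One model took all 9 libraries (limma 3.58.1, R 4.3.3 and statmod 1.5.0, with trended, robust eBayes). Two-sided p-values were adjusted by Benjamini-Hochberg over every tested gene, with 0.05 as the threshold. The method was also run on simulated data with independent noise and no outlying library. That run therefore cannot show how severe replicate 3 affects the counts. Read depth per gene is not known from TPM, so no counting intervals are given. Extra rows of 1 gene, in 2 libraries, were summed. All 8 antenna genes are named whatever their result, and of each further list up to 3 called genes with the largest change per comparison (the rest are counted only). NYC1, GLK2, STN7, Lhca2 and Lhca6, and Lhca1, Lhca5 and SGR beside H2Bub1, are named outside that rule, after their values were seen. Same-numbered replicates did not deviate together (correlations −0.257 to 0.143), so numbers were not used as pairs. Alternatives were other pseudocounts, filters, scalings, FPKM, the 6 libraries compared, a replicate block, plain eBayes and leaving out each replicate.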

Additional observations from a re-analysis of the deposited data

How the results depend on the processing

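Members called under moderate drought (1 of 7) numbered 3 after median-of-ratios scaling, 6 in the fit of the 6 libraries compared, 2 with the replicate block, and 6 with the error taken without severe replicate 3, an alternative chosen after seeing the data. Leaving out a replicate gave 1 each time. In these settings 3291 (without moderate replicate 2) to 5668 (median-of-ratios scaling) of all 20642 tested genes were called lower. Under severe drought (6 of 7) there were 3 after quantile normalization, 5 in the fit of the 6 libraries compared and 6 with the replicate block. Median-of-ratios scaling and eBayes without trend or robust each gave 7, and leaving out a replicate gave 4 to 7. In these settings 3641 (without normal replicate 3) to 6317 (quantile normalization) of all 20642 tested genes were called lower. For severe against moderate drought no setting called a member, and the count over all genes (3) was 1 with pseudocount 5, without a filter, after median-of-ratios scaling, with the replicate block and with eBayes without trend or robust, and 1 to 11 with a replicate left out (11 without severe replicate 3). CAB1R under moderate drought turned to −0.16 after median-of-ratios scaling and ran from −0.0034 (without moderate replicate 2) to 0.107 with a replicate left out, and CP26 in severe against moderate drought ran from −0.99 to 0.031 (without severe replicate 3). CAB1R under severe drought passed in 5 of 15 settings, among them without severe replicate 1 (adjusted p = 0.0455 in limma) and 2 (0.0242), and Lhcb3 missed the threshold in the fit of the 6 libraries (0.0592). The cause of these shifts was not tested. Of 322 fold changes recomputed for 7 members, 294 kept direction and side of the threshold. Genes called over all were 12040 under moderate drought (8133 higher, 3907 lower) and 12942 under severe drought (8687 and 4255). After quantile normalization they were 5690 higher and 5780 lower, and 5909 and 6317. The median of all genes was then −0.01 in both comparisons, and the members' medians were −0.58 and −1.36. With a replicate left out the totals were 10226 to 11157 and 11080 to 13807. With no limit on the FDR the authors' tables list 1 region of an antenna gene (Lhcb3), and 0 at an FDR under 0.05 or 0.01. Without the filter on low values LOC_Os01g52240 was tested and not called (adjusted p = 0.361 under severe drought and 0.703 in severe against moderate drought, limma).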
